A study of Mus musculus with 4 samples.

Results

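A set of 9 transcription factor genes that mark or set glial fate in the retina was examined: the Notch effectors Hes1 and Hes5, the SRY-box genes Sox2, Sox8 and Sox9, the nuclear factor I genes Nfia, Nfib and Nfix, and the LIM homeobox gene Lhx2. They were taken by symbol from the count matrices, and all 9 were present among the 32285 genes. Their levels were described in Müller glia and in 7 other classes of retinal cells, and NLGF retinas were compared with WT retinas. The study profiled single cells from retinas of mice at 30 days of age on the 10x Genomics droplet platform, in 4 libraries. The number of animals or retinas behind each library is not stated here. Wildtype controls (WT) were 1 female and 1 male library, and the NLGF group was 1 female and 1 male library. NLGF mice are a knock-in model of Alzheimer's disease in which the endogenous App gene carries a humanized amyloid-beta sequence with familial disease mutations, and no transgene promoter drives the allele. The labels name the genotype only as nlgf and do not give its zygosity, the litters or the preparation days. The p-values rest on the spread between the 2 libraries of each genotype. These are a female and a male, so that spread also holds any difference between the sexes. The tests draw each gene's spread toward the trend over all genes tested, so a p-value does not rest on that gene's own libraries alone. A difference between preparations that followed genotype could not be told apart from the NLGF effect.

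Müller glia are the radial glia of the retina, born last from the same multipotent progenitors that give rise to the retinal neurons. Notch signalling favours the glial fate: the cleaved receptor joins the DNA-binding protein RBPJ and switches on genes of the Hes and Hey families, whose products repress proneural genes. Sox2, Sox9 and Lhx2 are expressed in progenitors and stay on in mature Müller glia, and the nuclear factor I proteins act late in retinal development, when Müller glia and bipolar cells form.

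Hes5 was the member whose level differed most between the genotypes, and the 250 bases before its transcription start are shown here because they hold 2 copies of the core letters bound by RBPJ, the DNA-binding partner of Notch. The sequence is from RefSeq on GRCm38.p6, plus strand, chr4:154960673-154960922, and capitals mark the core TGGGAA, searched on both strands. The sequence of Lhx2 is shown beside it (chr2:38339031-38339280, plus strand), because Lhx2 was the other member with a match in the table.
Hes5: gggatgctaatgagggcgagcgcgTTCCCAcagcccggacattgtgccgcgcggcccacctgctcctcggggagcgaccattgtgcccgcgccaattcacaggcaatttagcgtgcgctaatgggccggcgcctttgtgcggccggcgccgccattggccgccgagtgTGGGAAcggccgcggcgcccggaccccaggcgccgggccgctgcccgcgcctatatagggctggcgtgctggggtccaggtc
Lhx2: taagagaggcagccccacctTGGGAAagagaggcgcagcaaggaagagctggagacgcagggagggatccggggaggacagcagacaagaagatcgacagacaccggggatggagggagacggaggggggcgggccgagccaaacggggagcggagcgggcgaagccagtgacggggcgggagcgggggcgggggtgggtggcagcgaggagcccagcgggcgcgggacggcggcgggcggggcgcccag

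In Hes5 the first match lay 226 to 221 bases before the start on the reverse strand and the second 82 to 77 bases before it on the forward strand. At least 1 match was found in 21.6% of the 32851 promoters in the table, and at least 2 in 2.77%. The Lhx2 sequence held 1 match, 230 to 225 bases before the start, and a second annotated start of Lhx2 had 1 match 9 to 4 bases before it. Of the 9 members, 6 were matched in the table by symbol (Hes5, Sox2, Sox8, Nfia, Nfix and Lhx2), and the windows of Sox2, Sox8, Nfia and Nfix held no TGGGAA. The N-box CACNAG, the letters bound by Hes repressors, occurred in 2 of the 4 Nfix windows and in none of the others, against 36.7% of all promoters. The E-box CANNTG, bound by proneural factors, occurred in 66.2% of all promoters, once each in Hes5 and Sox8, in 2 of the 4 Nfix windows and 4 times in Nfia. These matches describe letters only, and no binding was measured here.

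The 4 libraries held 8060 to 9068 barcodes, with a median of 945.5 to 1168.5 unique molecular identifiers (UMIs, each counting 1 captured RNA molecule) per barcode. Only 132 barcode sequences occurred in more than 1 library. After filtering, 31329 cells formed 19 clusters, which were named from marker genes alone, so a class name such as rod stands for rod-like cells. The endothelial class (87 cells) was led by Rgs5, from the pericyte and mural marker list, and Cldn5, from the endothelial list. Mural cells were not separated from it, so its levels are those of a vascular class that may hold both. Pairs of values for WT and for NLGF are given female first throughout. The 9 genes were left out of the genes used for clustering, and their levels therefore did not define the classes. The Müller class held 254 and 377 cells in WT and 406 and 374 cells in NLGF, with median UMIs of 3434 and 1746 in WT and 2321 and 3829.5 in NLGF. Its 5 most abundant markers were Apoe, Glul, Clu, Rlbp1 and Slc1a3, and the summed level of all 15 Müller markers was 40727 to 41741 CPM in the 4 libraries.

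Levels are given as CPM, the UMIs of a gene summed over the cells of 1 class in 1 library, per 1000000 UMIs of that sum. All 9 genes had their highest class mean in Müller glia, and for 8 of them the 4 Müller values lay above every value of the next class. These levels are a description, with no test.

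**Figure D1:**
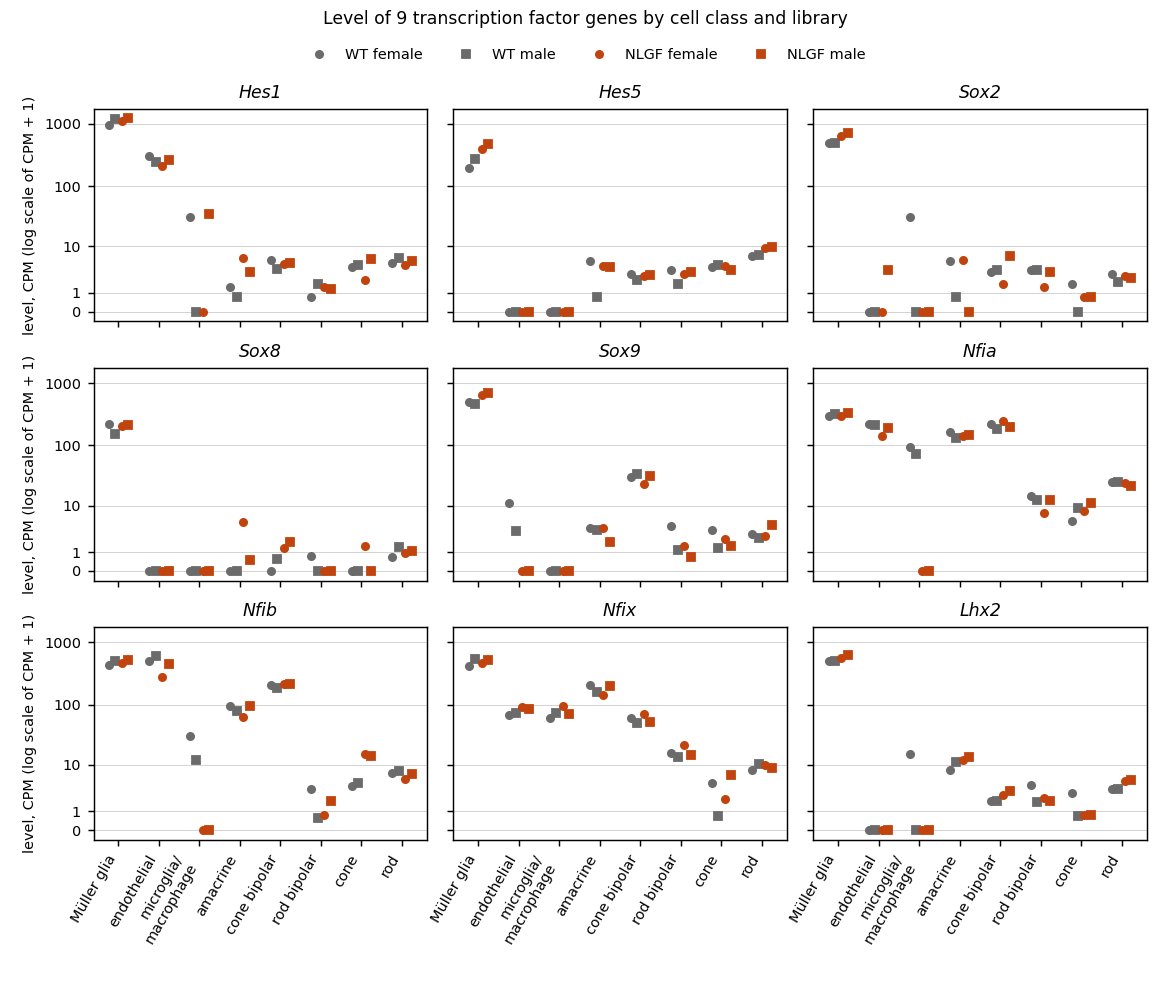
Level of each gene (CPM of summed counts, on a log scale of CPM + 1) in 8 cell classes, with 1 point per library (grey WT, orange NLGF, circle female, square male). Hes5, Sox2, Sox8 and Lhx2 have means of at most 11.3 CPM outside Müller glia, whereas Hes1 is also seen in endothelial cells, and the 3 nuclear factor I genes also in amacrine, cone bipolar and endothelial cells.

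Hes1 (ENSMUSG00000022528, chr16:30064384-30067796, plus strand, GRCm38) encodes a basic helix-loop-helix repressor that is a direct target of Notch. Its level in Müller glia was 968 and 1179 CPM in WT and 1106 and 1219 CPM in NLGF. The 2 genotypes overlapped. The endothelial class, in which mural cells were not separated, came next with 257 CPM ± 38.4 (SD, n = 4 libraries). No other class had a mean above 16.6 CPM. Müller glia held 93.2% of all Hes1 UMIs on average over the libraries.

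Hes5 (ENSMUSG00000048001, chr4:154960923-154962371, plus strand) encodes the related repressor that depends most closely on Notch in neural progenitors. In Müller glia it stood at 193 and 275 CPM in WT and at 398 and 473 CPM in NLGF, from 253 and 553 UMIs in WT and 815 and 956 UMIs in NLGF. Both NLGF libraries lay above both WT libraries. Rods came next with 8.18 CPM ± 1.56 (SD, n = 4), although rods, by their number, held 10.1% of all Hes5 UMIs. No Hes5 UMI was found in endothelial cells or microglia. There, 3 counts, the upper 95% limit for a count of 0 summed over the 4 libraries, would be 3.17 and 13.2 CPM. This limit covers counting error only.

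Sox2 (ENSMUSG00000074637, chr3:34650405-34652461, plus strand), a pluripotency and progenitor factor that is also needed to keep Müller glia quiescent, stood at 499.9 and 486 CPM in WT and at 628 and 704 CPM in NLGF. Sox9 (ENSMUSG00000000567, chr11:112782224-112787760, plus strand), a gliogenic factor, stood at 491 and 464 CPM in WT and at 633 and 681 CPM in NLGF. For both genes the genotypes did not overlap. Sox8 (ENSMUSG00000024176, chr17:25565892-25570686, minus strand), of the same SoxE group as Sox9, had 222 and 152 CPM in WT and 208 and 215 CPM in NLGF, and here the WT female was the highest of the 4.

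Outside Müller glia only 1 class mean of the Sox genes stood out: Sox9 in cone bipolar cells had 30.1 CPM ± 4.63 (SD, n = 4). Every other class mean of the 3 genes was at most 7.73 CPM. That highest remaining value was Sox2 in microglia and rested on 2 UMIs in 1 library. Class means can hide single cells. Of the amacrine Sox2 UMIs, 1 cell held 9 of 11 in the WT female and 1 cell held 8 of 9 in the NLGF female. The WT male had 1 and the NLGF male 0. Among the cone bipolar clusters, Sox9 was highest in the cluster led by Otor, Gabrr3, Gsg1 and Grik1, with 64.3 CPM (43.6 to 73.6 over the 4 libraries), and lowest in the cluster led by Cck, Cnmd, Reln and Vsx1, with 0.632 CPM (0 to 2.53).

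Lhx2 (ENSMUSG00000000247, chr2:38339281-38369733, plus strand) encodes a LIM homeodomain protein that specifies the eye field and later restrains Müller glial reactivity. It stood at 495 and 496 CPM in WT and at 568 and 623 CPM in NLGF, so the genotypes did not overlap. Amacrine cells followed with 11.3 CPM ± 2.19 (SD, n = 4). No Lhx2 UMI was found in endothelial cells.

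The nuclear factor I genes were spread more widely. In Müller glia Nfia (ENSMUSG00000028565, chr4:97772734-98118874, plus strand) had 295 to 326 CPM, Nfib (ENSMUSG00000008575, chr4:82290173-82705750, minus strand) 431 to 520.4 CPM and Nfix (ENSMUSG00000001911, chr8:84699876-84800344, minus strand) 415 to 549 CPM over the 4 libraries. Müller glia held 32.1% of all Nfia UMIs, 47.6% of all Nfib UMIs and 57.7% of all Nfix UMIs, against 85.2% to 96.3% for the other 6 genes. The Nfib values of Müller glia overlapped those of endothelial cells (452 CPM ± 135, SD, n = 4), so the order of these 2 classes was not separated by the spread between libraries. For Nfia the classes below Müller glia were cone bipolar cells with 212 CPM ± 29.2 and endothelial cells with 191 CPM ± 35.2 (SD, n = 4), whose ranges overlapped, and then amacrine cells with 146 CPM ± 14. For Nfix the second class was amacrine cells, with 177 CPM ± 31.6 (SD, n = 4).

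Within the amacrine and the cone bipolar class the 3 nuclear factor I genes did not all peak in the same cluster. The amacrine cluster led by Dync1i1, Fgf1, Lamp5 and Stac2 had 406 CPM of Nfia (394 to 417), 0.385 CPM of Nfib (0 to 1.54) and 30.8 CPM of Nfix (24.8 to 34.4). The other amacrine cluster, led by Gad1 and Gad2, which make the inhibitory transmitter GABA, had less Nfia and more Nfib and Nfix: 41.8 CPM of Nfia (33.9 to 50.1), 117 CPM of Nfib (86.7 to 138) and 237 CPM of Nfix (180.1 to 290.3). For each of the 3 genes the ranges of these 2 clusters did not overlap.

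In cone bipolar cells, Nfib was highest in the cluster led by Otor and Grik1, with 562 CPM (538 to 599.5), above the 4 values of the Müller class but overlapping those of its deeper cluster (464 to 561 CPM). Nfia was highest in the cluster led by Cdh9, Hs3st4 and Igfn1, with 556 CPM (429 to 621), above all 4 Müller values, and the same cluster had the highest cone bipolar level of Nfix, 189 CPM (142 to 222). In the cluster led by Cck and Vsx1 the 3 genes had between 2.58 and 3.91 CPM. Rod bipolar cells, which receive input from rods, had 11.8 CPM of Nfia, 1.71 CPM of Nfib and 16.7 CPM of Nfix. These clusters were formed without the 9 genes, and each drew cells from all 4 libraries.

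**Figure D2:**
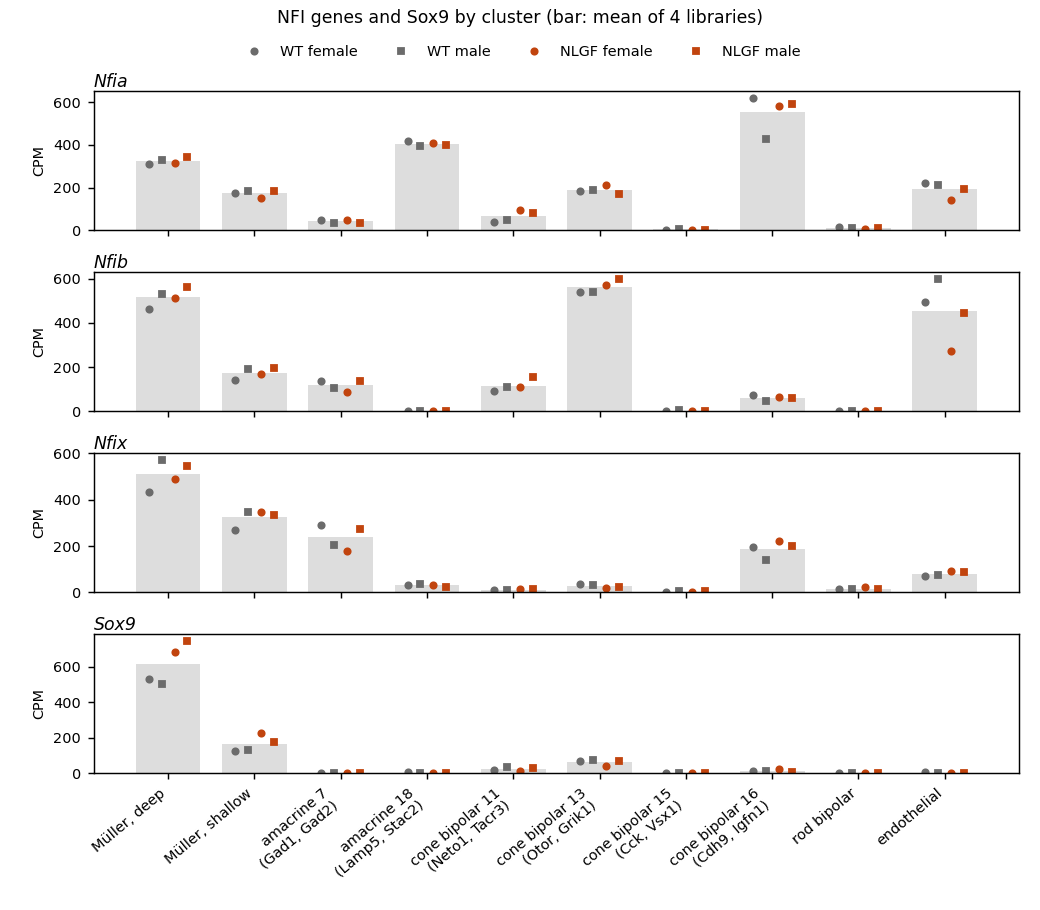
Level (CPM) of Nfia, Nfib, Nfix and Sox9 in the Müller, amacrine, cone bipolar, rod bipolar and endothelial clusters, each named with 2 leading genes where a class has several, with bars at the mean of 4 libraries and 1 point per library. Nfia peaks in cone bipolar cluster 16 (556 CPM) and amacrine cluster 18 (406 CPM), Nfib in cone bipolar cluster 13 (562 CPM) and Nfix in the deep Müller cluster (509.6 CPM).

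The Müller class joined 2 clusters of different depth, and the level of every member was lower in the shallow one. The deep cluster had 722 cells with a median of 9388.5 UMIs and the shallow one 689 cells with a median of 807 UMIs. Hes1 had 1206 CPM in the deep and 373 CPM in the shallow cluster, Sox9 had 615 and 166 CPM, and Sox8 had 216 and 54.7 CPM. Nfix had 509.6 and 325 CPM and Lhx2 had 570.3 and 337 CPM. With the class cut at 2000 UMIs per cell instead, the visual cycle gene Rlbp1 had 2996 CPM in the deep and 3053 CPM in the shallow cells. The part of depth in the lower member levels was not tested.

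Most members were seen in only a share of Müller cells. After each cell was thinned to 1000 UMIs, which left 954 of 1411 Müller cells, Hes1 had a UMI in 51.7% ± 3.04 of Müller cells (SD, n = 4 libraries), Lhx2 in 36.2% ± 4.12 and Sox8 in 17.5% ± 4. The unthinned shares were 59.3%, 59.4% and 40.9%. In rods, which are expected to lack these genes, the thinned shares were 0.337%, 0.339% and 0.0917%, from 10435 of 25169 rods with at least 1000 UMIs. The median depth of rods was 807 to 954 UMIs. Nfia had the highest share in rods, 1.82%, against 22.3% in Müller glia.

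Hes5 had a UMI in 13.3% and 15.8% of thinned Müller cells in WT and in 25.7% and 26.4% in NLGF, against 0.836% to 0.965% of rods. Sox2 had a UMI in 29.8% and 29.6% in WT and in 43.9% and 43.6% in NLGF. Sox9 had a UMI in 31.4% and 29.6% in WT and in 38.7% and 43.2% in NLGF. For these 3 genes both NLGF libraries lay above both WT libraries, as for Hes1 (51.6% and 47.8% in WT, 52% and 55.2% in NLGF). The Hes1 shares of the females were close after thinning. Without thinning the Hes1 shares overlapped, with 62.2% and 56% in WT and 58.6% and 60.4% in NLGF. The share of all genes in this order was not computed for detection. On summed CPM it was 24.6% of all genes tested in Müller glia. Both Hes1 and Hes5 were seen together in 8.51% and 8.1% of the WT cells and in 17.1% and 16.4% of the NLGF cells. The joint share expected from each gene's own share was not computed, so a separate change in joint detection is not shown. A thinned Müller cell held UMIs of 2.66 and 2.67 of the 9 genes on average in WT and of 2.95 and 3.26 in NLGF, whereas 94.6% to 95.6% of rods held none.

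**Figure D3:**
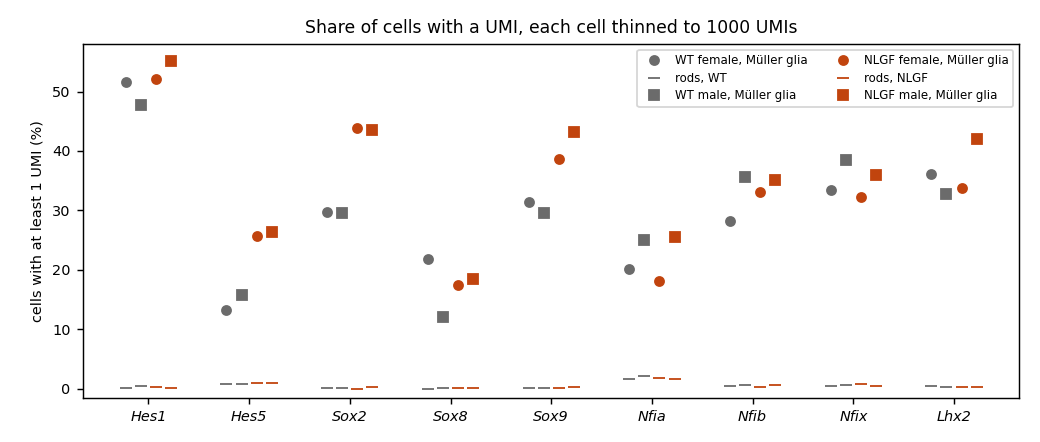
Share of cells (%) with at least 1 UMI of each gene after thinning every cell to 1000 UMIs, with 1 symbol per library for Müller glia and short lines for rods. Hes1, Hes5, Sox2 and Sox9 are seen in a larger share of Müller cells in both NLGF libraries than in both WT libraries. Rods stay at or below 2.23%. For Hes1 the female libraries are close (51.6% in WT, 52% in NLGF), and its unthinned shares overlap between the genotypes. The share of all genes in this order was not computed for detection.

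The comparison of NLGF with WT was made on the counts summed per library in each class, with edgeR's quasi-likelihood test and Benjamini-Hochberg adjustment over all genes tested, at a threshold of 0.05. In Müller glia 1 of the 9 members passed, Hes5, which was higher in NLGF. Over all 11099 genes tested 1.05% passed, and 0.595% passed with a higher level in NLGF. Hes5 rose by 0.84 ± 0.14 on the log2 scale (log2 fold change ± SE, edgeR adjusted p = 0.003805), and with the test's TMM scaling factors it was higher by 1.01 in the female pair and by 0.73 in the male pair. Its UMIs came from 79 and 117 cells in WT and 168 and 174 cells in NLGF, and 1 cell of the WT female held 13% of that library's Hes5 UMIs.

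Sox9 and Sox2 missed the threshold. The log2 fold change was 0.42 ± 0.10 for Sox9 (edgeR adjusted p = 0.05338) and 0.39 ± 0.10 for Sox2 (edgeR adjusted p = 0.0845), and both were higher in NLGF in each sex. Lhx2 had 0.22 ± 0.10 (edgeR adjusted p = 0.4204). Hes5, Sox9, Sox2 and Lhx2 were the 4 members whose NLGF libraries both lay above the WT libraries, and no member had both below. Over all genes tested 24.6% had both NLGF libraries above and 16.6% had both below. The same 4 members had an unadjusted p under 0.05 with a higher level in NLGF, against 5.26% of all genes.

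**Figure D4:**
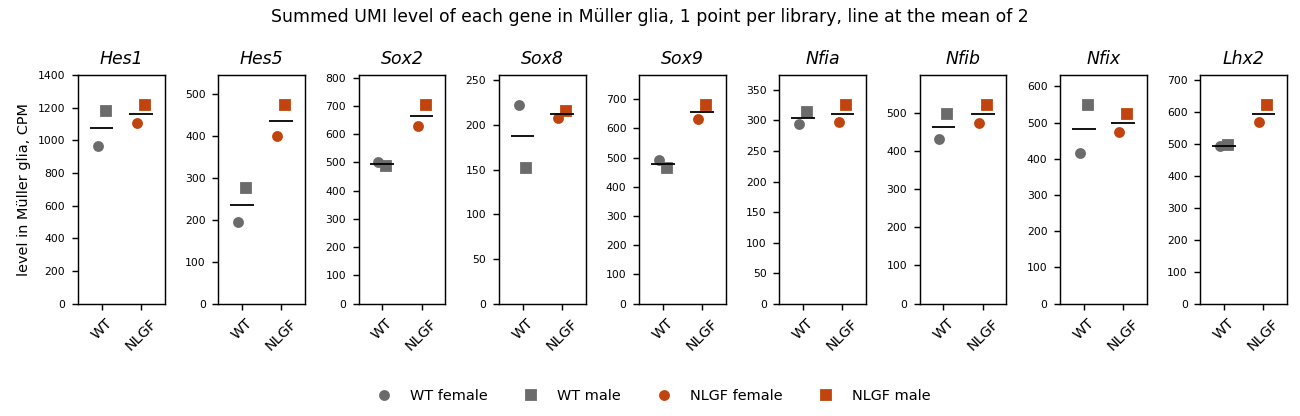
Level (CPM of summed counts, linear axis from 0) of each gene in Müller glia, with 1 point per library and a line at the mean of the 2 libraries of a genotype. Hes5, Sox2, Sox9 and Lhx2 are the genes whose 2 NLGF points both lie above the 2 WT points.

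The remaining 5 members had log2 fold changes near 0. Hes1 had 0.07 ± 0.11, Sox8 0.16 ± 0.13, Nfib 0.06 ± 0.10, Nfia -0.01 ± 0.10 and Nfix 0.00 ± 0.12, with edgeR adjusted p-values between 0.7207 and 1. Over the 9 members the median log2 fold change was 0.16 and 8 were above 0, against a median of 0.00 and 5627 of 11099 above 0 for all genes tested.

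The Hes5 call was lost with DESeq2 (log2 fold change 0.85, DESeq2 adjusted p = 0.5333, unadjusted p = 0.002435) and in Müller cells under 2000 UMIs (log2 fold change 0.41, edgeR adjusted p = 0.9118), whereas Müller cells of at least 2000 UMIs gave 0.86 (edgeR adjusted p = 0.0045). The cells under 2000 UMIs held only 16 and 24 Hes5 UMIs in WT and 38 and 26 in NLGF, so that fit had few counts. Astrocyte markers summed to 924 CPM in the Müller class of the WT female and to 299.7 to 361 CPM in the other 3 libraries, with none of the 8 markers at 0. Between 6 and 10 Müller cells per library held UMIs of at least 2 of the astrocyte genes Gfap, Pax2, Pdgfra, Igfbp5 and S100b, and without them the Hes5 log2 fold change was 0.79 (edgeR adjusted p = 0.0005491). The median mitochondrial share of the Müller class was 8.15% and 8.98% in WT and 7.3% and 7.71% in NLGF, lower in both NLGF libraries. With cells limited to 10% mitochondrial UMIs the Hes5 log2 fold change was 0.89 (edgeR adjusted p = 1.02e-05). The part of the remaining mitochondrial difference in the Hes5 result was not tested.

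**Figure D5:**
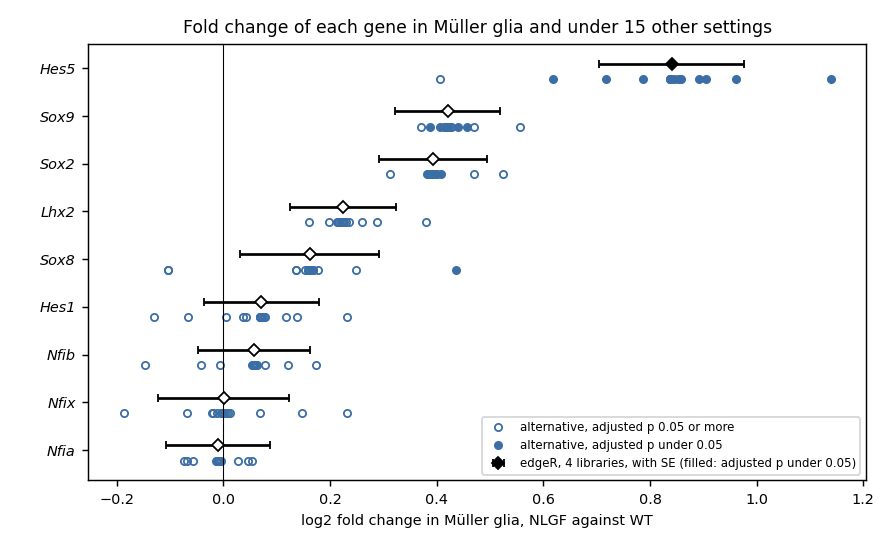
Log2 fold change of each gene in Müller glia, NLGF against WT, from edgeR on 4 libraries (diamonds, bars are the SE) and under 15 other settings (circles, filled where the adjusted p is under 0.05). Hes5 lies between 0.41 and 1.14 throughout, whereas the circles of Hes1, Sox8, Nfia, Nfib and Nfix lie on both sides of 0.

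In the other classes edgeR called no member. The share of genes called was 0.0268% in amacrine cells, 0.0962% in endothelial cells, 0.00807% in rods and 0.0107% in rod bipolar cells, and 0% in cones, cone bipolar cells and microglia, where 533, 768 and 82 genes had an unadjusted p under 0.05 and DESeq2 called 2, 5 and 0 genes. The members with enough counts to be tested were 8 in rods, 6 in cone bipolar cells, 4 in amacrine cells, 4 in endothelial cells, 2 in cones, 2 in rod bipolar cells and none in microglia. Their edgeR adjusted p-values lay between 0.6348 and 0.9994. DESeq2 called no member in these classes either.

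Among these values 2 had an unadjusted p under 0.05, both of Nfib. In cones, the colour photoreceptors, Nfib had 4.06 and 4.6 CPM in WT (7 and 7 UMIs) and 15.3 and 14 CPM in NLGF (21 and 19 UMIs). Only 5 and 4 cones in WT and 4 and 4 in NLGF held these UMIs, and 1 cell held 13 of the 21 and another 11 of the 19 in NLGF, so the number of cones with a UMI was about equal. The genotypes did not overlap in CPM, and the log2 fold change was 1.74 ± 0.40 (edgeR adjusted p = 0.8384). The share of all genes without overlap was not computed for cones. In endothelial cells Nfib had 495 and 596 CPM in WT and 274 and 444 CPM in NLGF. Its log2 fold change was -0.55 ± 0.22 (edgeR adjusted p = 0.9441). The NLGF female gave only 12 endothelial cells, against 22 to 28 in the other 3 libraries, and 19 of its 27 Nfib UMIs came from 1 cell.

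In rods the Hes5 level was 6.61 and 7.09 CPM in WT and 9.27 and 9.75 CPM in NLGF, which did not overlap, with a log2 fold change of 0.39 ± 0.20 (edgeR adjusted p = 0.6348). Lhx2 in rods followed the same order, with 3.5 and 3.49 CPM in WT and 5.05 and 5.29 CPM in NLGF, a log2 fold change of 0.49 ± 0.26 (edgeR adjusted p = 0.6536). The share of all genes in this order was not computed for rods, and in Müller glia it was 24.6%. The rod level was 2.06% to 3.42% of the Müller level for Hes5 and 0.703% to 0.888% for Lhx2. For the Müller markers Apoe, Glul, Clu, Rlbp1 and Slc1a3 the rod level was 0.353% to 1.25% of the Müller level, and for Nfia it was 6.54% to 8.7%. The part of free Müller RNA in the rod values was not tested.

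Whether the genotype effect differed between Müller glia and another class was tested as an interaction with library as a block. Between Müller glia and rods edgeR called none of the 9 members, against 0.368% of all genes. The difference for Hes5 was 0.46 ± 0.21 on the log2 scale (edgeR adjusted p = 0.5442, unadjusted p = 0.02863). For Sox9 and Sox2 it was 0.03 ± 0.36 and 0.41 ± 0.35 (edgeR adjusted p = 1 and 0.8429). Between Müller glia and amacrine cells none of the 9 was called either, against 0.439% of all genes. The largest difference there, -4.95 ± 1.5 for Sox8 (edgeR adjusted p = 0.1286), rested on 0 and 0 amacrine UMIs in WT and 8 and 1 in NLGF, with all 8 in 1 cell.

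Other genes of the Notch pathway and of glial and neuronal fate were read from the same Müller fit. Of 27 Notch ligands, receptors and modifiers 18 were tested, with none called and a median log2 fold change of -0.01. The one with an unadjusted p under 0.05 was Aph1b, a subunit of the gamma-secretase that cleaves Notch and APP (0.58 ± 0.26, edgeR adjusted p = 0.4334), and its value was 0.24 without the WT male and 0.90 without the WT female. Of 25 Notch nuclear factors and targets 23 were tested, with none called and a median of 0.09. Hey2, a Hes-related repressor, had 116 and 117 CPM in WT and 142 and 147 CPM in NLGF, a log2 fold change of 0.26 ± 0.10 (edgeR adjusted p = 0.3294). Hes6, an inhibitor of Hes1, had 14.5 and 18.4 CPM in WT and 23.9 and 28.2 CPM in NLGF (0.59 ± 0.25, edgeR adjusted p = 0.395), and its value was 0.30 with likely doublets kept. The genotypes did not overlap for either gene.

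Of 19 proneural and neurogenic factors 11 were tested, with none called and a median log2 fold change of 0.00. Neurog2, a proneural factor, had a log2 fold change of 0.81 ± 0.35 from 9 and 14 UMIs in WT and 24 and 27 in NLGF (edgeR adjusted p = 0.4139). Of 33 progenitor and other glial factors 27 were tested, with none called and a median of 0.01. In that list the values with an unadjusted p under 0.05 were 0.74 for the homeobox gene Meis2, 0.41 for Id4, an inhibitor of helix-loop-helix proteins, 0.24 for Tead1, the DNA-binding partner of YAP, and -0.54 for the nuclear receptor Nr2f2. The Id4 value was 0.03 without the WT male and 0.02 with likely doublets kept, and 0.79 without the WT female, where edgeR called it (adjusted p = 0.007031); it was also called with a mitochondrial limit of 10% and without astrocyte-marker cells. Meis2 lay between 0.37 (without the NLGF male) and 1.04 (without the NLGF female). Nr2f2 had -0.27 and -0.90 without these same libraries, and -0.31 and -0.80 without the WT female and without the WT male.

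The genes whose pattern was most like each member's were ranked by Pearson correlation of log2(CPM + 1) over 32 sums, 8 classes in 4 libraries, among 10707 genes. The sums of a library share its depth and preparation, and each r is a description. For Lhx2 the first was Slc1a3, the glutamate transporter of Müller glia (r = 0.979), followed by Crym and Gpld1. Sox8 came with Bdh2 (r = 0.982), Nr1h4 and Pdpn, Sox2 with Abca6 (r = 0.961), Frzb and Espn, Hes5 with Mlc1 (r = 0.95), Dcdc2a and Lockd, and Sox9 with Sulf1 (r = 0.941), Npas3 and Cyp2j9. Hes1 came with Prelp (r = 0.951), Ccn1 and Tril, all 3 of which were highest in Müller glia and second in endothelial cells. Nfia and Nfib were each other's nearest gene (r = 0.929). After them came Slc41a1 and Grk3 for Nfia and Slco3a1 and Nynrin for Nfib. These sums join the clusters of a class, and within a class Nfia and Nfib could differ. The amacrine cluster led by Dync1i1 had 406 CPM of Nfia and 0.385 CPM of Nfib, and the cone bipolar cluster led by Otor had 189 and 562 CPM. Nfix came with Mgll (r = 0.921), Ptpra and Ttyh3.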

How the data were processed

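The values are unnormalized UMI counts, deposited by the authors as 1 gene-by-barcode matrix for each of 4 libraries. Cell Ranger 6.1.1 wrote them, per the file headers, while Cell Ranger 3.1.0, STAR and mm10 stand in the submitters' processing notes. Of 35191 barcodes, 33329 passed a minimum of 300 genes and a maximum of 20% mitochondrial UMIs. Scrublet's automatic threshold marked 2 cells, so the top 6% of doublet scores in each library (2000 cells) were removed. Cells were scaled to 10000 UMIs, log transformed and clustered with scanpy 1.11.5 (2000 variable genes without the 9 members, 30 components, 20 neighbours, Leiden resolution 1).

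Each cluster was given the class whose markers had the highest mean z-score (3 or more detected), or a class with more markers among its top 10 genes. It stayed unnamed with no marker there and a z-score under 0.8, or where another class had more; 2 clusters (4 and 8) stayed unnamed. That rule was set after clusters were seen.

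Counts were summed per library and class (at least 10 cells in each library) and tested with edgeR 4.0.16 (TMM, filterByExpr, genotype as the only term). DESeq2 1.42.0 was an alternative. The test was checked on simulated counts. CPM values use raw totals. Positions are from GENCODE M21 on GRCm38, where 32235 of 32285 gene IDs matched. Other annotated genes overlap 7 of the 9 members, and Sox2 lies inside Sox2ot on the same strand. The sources used here do not say whether counting used strand or introns, so reads of such pairs are uncertain. The members, gene lists and tests were chosen with earlier results of these data known. Named were all 9 members in Müller glia, members with an unadjusted p under 0.05 elsewhere, up to 4 such genes per list, the 3 genes most like each member and 5 Müller markers. Hes5, Lhx2, Sox9 and Sox2 in rods or the interactions, and Sox8 in amacrine cells were named after their values were seen. Some results that the naming rule would give are not reported here.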

Additional observations from a re-analysis of the deposited data

Results flagged for a closer look

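Within Müller glia, 4 members had differences of opposite sign in the 2 sexes on the scale of the test (log2 CPM with TMM factors), with 1 library on each side, and the difference between the sexes was not tested. The difference of NLGF minus WT was -0.13 for Sox8 in females and 0.45 in males, and 0.16 for Nfix in females and -0.12 in males. For Hes1 it was 0.16 in females and -0.0027 in males, and for Nfia -0.0205 in females and 0.0040 in males. On CPM from raw totals only 2 of the 4, Sox8 and Nfix, had opposite signs: Hes1 was 0.19 and 0.05, and Nfia 0.01 and 0.06, in females and males.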

How the results depend on the processing

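Of 16 settings in Müller glia, Hes5 was called in 14, Sox9 in 5, Sox2 in 4, Sox8 in 1 (without the WT female, log2 fold change 0.436), and the other members in none. The sign of Hes5, Sox9, Sox2 and Lhx2 was the same in all 16. Against 1 member and 116 genes called in the main test, DESeq2 called 0 members and 40 genes, and 245 genes and 3 members were called with high doublet scores kept. A mitochondrial limit of 10% gave 2 members. Müller cells under 2000 UMIs, an alternative chosen after seeing the data, gave 0 members and 1 gene. Leaving out 1 library gave 1 to 4 members (4 and 3 when the WT female or the WT male was left out) and 96 to 274 genes (263 and 274 for the same 2 libraries). The cause of these shifts was not tested.

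The labels do not pair animals, and sex is the only label shared across genotypes. With sex as a replicate block 3 members and 320 genes were called in Müller glia, and 1 member in cones. Deviations of same-sex libraries from their genotype means correlated at 0.178 over 11099 genes, and at 0.0316 over the 11093 genes left without sex-linked ones. In the interaction of Müller glia with amacrine cells 1 member was called with doublets kept, and 0 to 1 with 1 library left out.

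The sign of small log2 fold changes turned. Müller cells under 2000 UMIs gave -0.1308 for Hes1, -0.1039 for Sox8 and -0.1475 for Nfib, and a mitochondrial limit of 10% gave 0.02687 for Nfia. For Nfix the value was -0.002559 with RLE factors, -0.02215 with doublets kept, -0.003889 with the members used for clustering, -0.0008595 at resolution 2, -0.01257 in cells of at least 2000 UMIs and -0.01906 without astrocyte-marker cells. Leaving out 1 library gave -0.06662 to 0.2309 for Hes1, -0.1032 to 0.436 for Sox8, -0.07328 to 0.05291 for Nfia, -0.04146 to 0.1733 for Nfib, -0.187 to 0.2309 for Nfix and 0.62 to 1.14 for Hes5. Low counts of the members limited the tests outside Müller glia: 4 or fewer of the 9 were tested in amacrine cells, endothelial cells, cones, rod bipolar cells and microglia.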
